A study of Mus musculus with 7 samples.

Results

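The 10 genes described here are Trp53, which encodes the transcription factor p53, and 9 genes known as its targets: Mdm2, Ccng1, Bax, Bbc3, Sesn1, Zmat3, Phlda3, Trp53inp1 and Eda2r. They were taken by symbol from the 49585 gene rows of the deposited tables, and all 10 had a row and passed the filter on low counts. RNA sequencing was done on MS-1 cells, a mouse endothelial line from pancreatic islets, grown in DMEM, with 3 control libraries of the wild-type line. The 4 other libraries carry the label of lipoprotein lipase (LPL) overexpression. LPL breaks down the triglycerides of circulating lipoproteins. The comparison asks how the endothelial transcriptome changes when LPL is overexpressed. The labels give no dose, time, promoter or species of the LPL sequence, no number of clones and no vector-only control, and they do not tell whether each replicate was its own culture. The p-values therefore cover the spread among these 7 libraries alone, which may be technical. MS-1 cells were immortalised with a temperature-sensitive large T antigen of a simian virus, a protein known to bind p53 and block its activity. Both groups are labelled as MS-1 cells. Whether all cells in the LPL overexpression libraries carry that antigen was not tested.

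p53 is kept low in unstressed cells because the ubiquitin ligase Mdm2 marks it for destruction. DNA damage and other stresses free p53, which then switches on genes of cell cycle arrest, DNA repair, metabolism and cell death, and also Mdm2 itself, closing a feedback loop. Much of that control acts on the p53 protein, so the level of Trp53 RNA and the activity of the protein are separate quantities, and only RNA was measured here.

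Libraries held between 24328418 and 29210847 counted reads, and each of the 10 genes had at least 184 reads in every library. Lpl itself had 1, 1 and 6 reads in control replicates 1 to 3, against 10867, 12691, 10901 and 12753 in LPL overexpression replicates 1 to 4, as labelled. Genes of pigment cells set the groups apart. All 15 pigment cell markers examined were higher with LPL overexpression, their summed level was between 18.2 and 19.4 CPM (counts scaled to library size) in the controls and between 1682 and 1779 CPM with LPL overexpression, and 8 of them (Tyrp1, Dct, Tyr, Mlana, Oca2, Mlph, Sox10 and Tspan10) had no read in any control. The 12 endothelial markers examined summed to between 7108 and 7218 CPM in the controls and between 6093 and 6253 CPM with LPL overexpression. Pecam1 made up the largest part of that sum and of its fall, with means of 2823 CPM in the controls and 2145 CPM with LPL overexpression. Of the 11 endothelial markers tested, 7 were lower (63.6%, beside 21.3% of all genes tested) and 2 higher (18.2%, beside 21.9%). Of the 12 endothelial markers, Cldn5 had a single read over the 7 libraries together. In bulk RNA, fewer cells of a type and less RNA per cell cannot be told apart. What part the pigment cell RNA had in the changes described next was not tested.

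A p53 binding site is a pair of 10-base units, and a stretch matching the consensus of 1 such unit lay upstream of 5 of the 10 genes. RefSeq promoter windows of build GRCm38.p6 (the same assembly as mm10), each 250 bases before to 50 bases after an annotated start, were found for 8 of the genes (11 windows, since Bbc3 and Sesn1 have several starts), and not for Zmat3 and Trp53inp1. The unit's consensus reads the same on both strands, so 1 search covers both. It was present in 5 of the 11 windows and in 8.36% of all 32851 windows of the same length, and a full site (a pair of units at most 13 bases apart) was present in 0 of the 11 and in 0.0731% of all. The 5 matches are shown because they cover genes that fell, the gene that rose and 1 that did not pass, with the matching unit in capitals and 25 bases on each side, 5′ to 3′ on the strand of the gene. A match is a description of letters and not a bound site, and the p53 sites known in Mdm2 lie in its first intron, outside these windows.
Trp53, chr11:69580259-69580318, plus strand, unit beginning 75 bases upstream of the start: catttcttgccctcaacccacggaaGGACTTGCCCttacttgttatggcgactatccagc
Mdm2, chr10:117710910-117710969, minus strand, 186 bases upstream: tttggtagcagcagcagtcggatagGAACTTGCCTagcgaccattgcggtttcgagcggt
Ccng1, chr11:40755437-40755496, minus strand, 185 bases upstream: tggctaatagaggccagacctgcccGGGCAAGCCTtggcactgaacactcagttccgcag
Bax, chr7:45467065-45467124, minus strand, 201 bases upstream: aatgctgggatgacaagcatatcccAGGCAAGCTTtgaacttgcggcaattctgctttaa
Sesn1, chr10:41887241-41887300, plus strand, 173 bases upstream of the start of a shorter form inside the gene: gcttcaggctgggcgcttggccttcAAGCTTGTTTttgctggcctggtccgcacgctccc

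Most of the 10 genes were abundant in the control libraries. Levels are given in TPM (transcript abundance), scaled by the length of all annotated exons of a gene together. The length of the transcripts in use was not measured. The order of genes, and the size of a ratio between 2 genes, therefore depend on that annotated length. In the controls Phlda3 stood highest at 521 ± 18.9 TPM (SD, n = 3), rank 251 of 13639 genes tested. Ccng1 (352 ± 4.90 TPM), Bax (297 ± 3.06), Trp53 (205 ± 2.29), Mdm2 (181 ± 6.76) and Eda2r (138 ± 1.34) followed, each within the highest 10% of genes tested. Zmat3 (41.6 ± 0.280 TPM), Bbc3 (20.2 ± 1.31), Trp53inp1 (18.6 ± 0.664) and Sesn1 (6.06 ± 0.338) were lower. No neighbours in this order overlapped in their library values, and the 4 LPL overexpression libraries gave the same order, again with no overlap between neighbours. Bbc3 and Trp53inp1 were the closest pair, with a lowest Bbc3 value of 19.18 TPM against a highest Trp53inp1 value of 19.16 TPM in the controls.

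**Figure D1:**
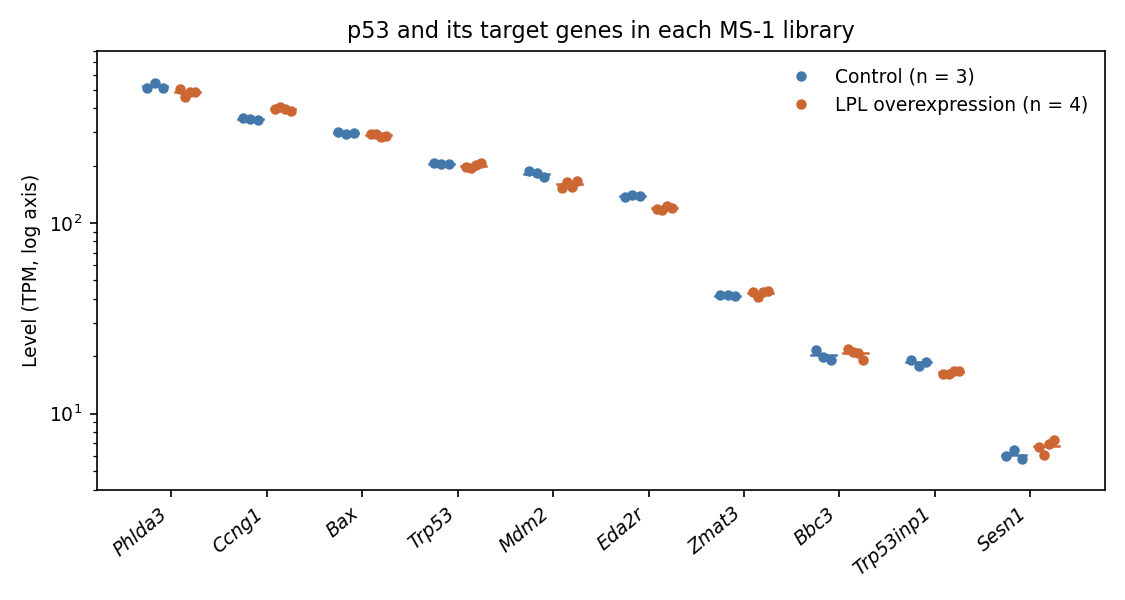
Level of each gene in each library, in TPM on a log axis, with 3 control and 4 LPL overexpression libraries as points and group means as bars. The genes span from 6.06 TPM (Sesn1) to 521 TPM (Phlda3) in the controls, and their order is the same in both groups.

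With LPL overexpression, 6 of the 10 genes fell (Eda2r, Mdm2, Trp53inp1, Phlda3, Bax and Trp53), 1 rose (Ccng1) and 3 did not pass (Bbc3, Sesn1 and Zmat3). The test was edgeR's quasi-likelihood test over 13639 genes at a Benjamini-Hochberg adjusted p under 0.05, in which 43.2% of all genes changed, 21.9% higher and 21.3% lower. The changes were small, from -15.1% for Eda2r to 10.4% for Ccng1, and the median log2 fold change of the 10 was -0.069 beside 0.0024 over all genes tested. Regardless of direction, the median size of the log2 fold change was 0.131 for the 10 and 0.121 over all genes tested. Small changes pass more readily in genes with many reads, and most of the 10 were abundant. The shares are not matched for level. The genes were chosen with earlier results of these data known, so the count was not tested against other genes. In CPM the groups of 7 of the 10 genes did not overlap, against 44.6% of all genes tested, and in TPM those of 6, against 44.9%. The falls of Trp53 and Bax rested on the choices of analysis given with them.

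**Figure D2:**
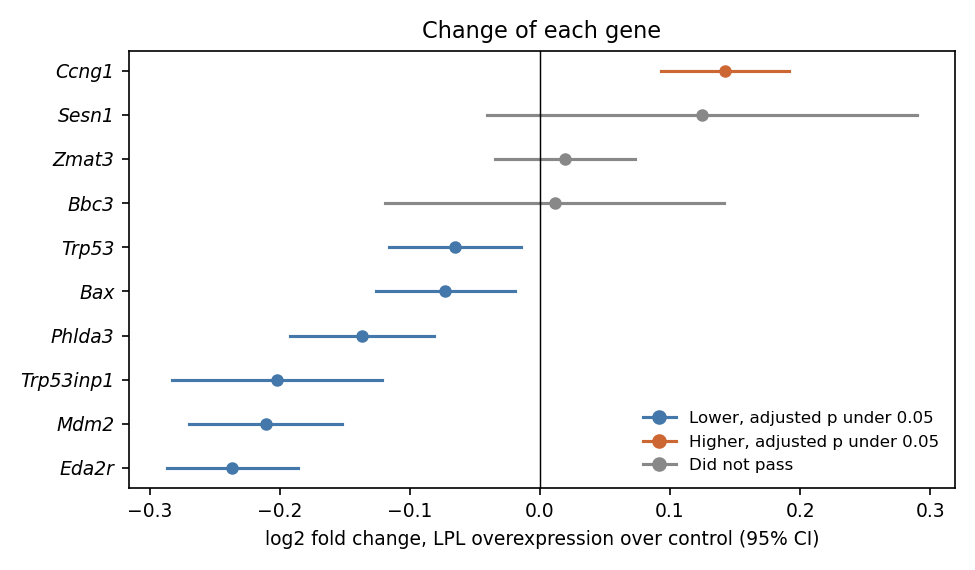
Log2 fold change of each gene, LPL overexpression over control, with its 95% confidence interval, coloured by whether the adjusted p was under 0.05. The interval was computed from the SE derived from the edgeR F statistic. Eda2r, at -0.24, lies lowest and Ccng1, at 0.14, highest, and the intervals of Bbc3, Zmat3 and Sesn1 include 0.

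Trp53, the gene of p53 itself, lies on the plus strand of chromosome 11 (69580359 to 69591873, mm10). It stood at 207, 203 and 204 TPM in control replicates 1 to 3 and at 197, 193, 201 and 206 TPM in LPL overexpression replicates 1 to 4. In TPM the groups overlapped through LPL overexpression replicate 4, while in CPM scaled by the trimmed mean of M values (TMM) all 4 lay below the controls, which held for 21.8% of genes tested. Trp53 fell by 4.41% (log2 fold change -0.065, SE 0.025), with adjusted p = 0.0324 in edgeR. That call ended in 11 of 14 alternative analyses, among them DESeq2 (adjusted p = 0.0639), limma on TPM (0.263) and the omission of any single library other than LPL overexpression replicate 4, with adjusted p from 0.0121 to 0.264 over the 14. The pseudogene Trp53-ps had 0 reads in all 7 libraries, and reads antisense to Trp53 were 0.0301% of its oriented reads.

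The library pattern of Trp53 was most like those of Lnx2, Dopey2 and Ep300, with Pearson's r of 0.990, 0.983 and 0.980 for log2 CPM over the 7 libraries. These r values are a description over 7 points that share the group difference, and 283 of 13638 genes had r over 0.9.

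Mdm2, the ubiquitin ligase that restrains p53 and is also its target, lies on the minus strand of chromosome 10 (117688888 to 117710758). It stood at 187, 182 and 174 TPM in the controls and at 152, 164, 154 and 167 TPM with LPL overexpression. All 4 LPL overexpression libraries were below all 3 controls. Mdm2 fell by 13.6% (log2 fold change -0.21, SE 0.029), with adjusted p = 1.26e-07 in edgeR.

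Ccng1, the gene of cyclin G1, a p53 target that recruits a phosphatase to Mdm2, was the member that rose. It lies on the minus strand of chromosome 11 (40748552 to 40755311) and stood at 357, 351 and 347 TPM in the controls and at 395, 404, 394 and 388 TPM with LPL overexpression. Every LPL overexpression library was above every control. Ccng1 rose by 10.4% (log2 fold change 0.14, SE 0.024), with adjusted p = 2.88e-06 in edgeR. Its relative Ccng2, which encodes cyclin G2, moved the other way, from 14.3 ± 0.884 TPM (SD, n = 3) to 12.9 ± 0.613 TPM (SD, n = 4), at adjusted p = 0.00714 in edgeR (log2 fold change -0.17, SE 0.052). DESeq2 (adjusted p = 0.0621), limma on TPM (0.0789) and leaving out control replicate 2 (0.0737) each ended the Ccng2 call, with adjusted p from 0.00263 to 0.0791 over 14 alternatives.

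Bax and Bbc3 act in cell death through mitochondria. Bax forms pores in the outer mitochondrial membrane, and the product of Bbc3, also called PUMA, neutralises the proteins that hold Bax back. Bax, on the minus strand of chromosome 7 (45461697 to 45466898), stood at 300.4, 294 and 297 TPM in the controls and at 294, 291, 282 and 285 TPM with LPL overexpression. In the GENCODE M21 annotation exons of Bax overlap those of Gm45808, a gene on the same strand. Reads there could be split, shared or left uncounted. M21 is not exactly the annotation of the counts, since it places the lower end of Mdm2 at 117688875 and not 117688888. The groups lay close but apart, with the highest LPL overexpression value at 293.8 TPM and the lowest control at 294.3 TPM. Bax fell by 4.91% (log2 fold change -0.073, SE 0.027), with adjusted p = 0.0231 in edgeR. The Bax call ended in 10 of 14 alternatives, among them DESeq2 (adjusted p = 0.0710), limma on TPM (0.113) and the omission of control replicate 1 or 3 or of LPL overexpression replicate 3 or 4, with adjusted p from 0.0204 to 0.133 over the 14.

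Bbc3, on the plus strand of chromosome 7 (16308393 to 16318205), stood at 21.7, 19.8 and 19.2 TPM in the controls and at 21.9, 21.1, 20.9 and 19.2 TPM with LPL overexpression. The groups overlapped over nearly their whole range. Bbc3 had adjusted p = 0.904 in edgeR (log2 fold change 0.012, SE 0.065), with a 95% confidence interval from -0.12 to 0.14.

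Eda2r encodes a receptor of the tumour necrosis factor receptor family that binds a form of ectodysplasin A, the product of Eda. It lies on the minus strand of the X chromosome (97333840 to 97377216) and stood at 137, 140 and 138 TPM (139.9 in control replicate 2) in the controls and at 118, 117, 123 and 121 TPM (120.5 in replicate 4) with LPL overexpression. The groups were well apart, with 123 TPM the highest value of one and 137 TPM the lowest of the other. Eda2r fell by 15.1% (log2 fold change -0.24, SE 0.025), with adjusted p = 2.21e-11 in edgeR. That was the largest change among the 10 genes and rank 3779 by size among the 13639 tested. Its ligand gene Eda and the related receptor gene Edar had 0 reads in all 7 libraries, which allows up to 0.0372 CPM in the controls and 0.0280 CPM with LPL overexpression, limits that cover counting error only. Edaradd, the adaptor gene of Edar, had 15 reads in the controls and 133 with LPL overexpression, at most 0.584 TPM in any library, and rose at adjusted p = 4.43e-10 in edgeR (log2 fold change 2.71, SE 0.32). With limma the Edaradd difference was 0.80 on log2(TPM + 0.5) and 0.49 on log2(TPM + 1), scales that understate the change of low genes.

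Phlda3, whose product competes with the kinase Akt for membrane lipids, lies on the plus strand of chromosome 1 (135766119 to 135769136). It stood at 513, 543 and 508 TPM in the controls and at 504, 459.7, 484 and 487 TPM with LPL overexpression. The groups did not overlap, though LPL overexpression replicate 1 (503.6 TPM) came close to control replicate 3 (508.2 TPM). Phlda3 fell by 9.04% (log2 fold change -0.14, SE 0.028), with adjusted p = 5.90e-05 in edgeR. Its relative Phlda1 rose from 20.05 ± 1.84 TPM (SD, n = 3) to 30.1 ± 1.75 TPM (SD, n = 4), or 0.56 as a log2 fold change (SE 0.061), and Phlda2, with 18 and 24 reads over the groups, was not tested.

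Trp53inp1, a stress-induced partner of p53 that also takes part in autophagy, lies on the plus strand of chromosome 4 (11156431 to 11174379). It stood at 19.2, 17.9 and 18.7 TPM in the controls and at 16.1, 16.1, 16.8 and 16.8 TPM with LPL overexpression. All 4 were below the controls. Trp53inp1 fell by 13.1% (log2 fold change -0.20, SE 0.040), with adjusted p = 3.72e-05 in edgeR. Trp53inp2, its relative, rose from 8.48 ± 0.564 TPM (SD, n = 3) to 10.1 ± 0.171 TPM (SD, n = 4), at adjusted p = 0.00238 in edgeR (log2 fold change 0.22, SE 0.061).

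Sesn1 and Zmat3 did not pass. Sesn1, a sestrin gene of nutrient and redox control on the plus strand of chromosome 10 (41809935 to 41908424), stood at 5.99, 6.42 and 5.76 TPM in the controls and at 6.69, 6.05, 6.97 and 7.28 TPM with LPL overexpression. Only LPL overexpression replicate 2 lay within the range of the controls, and the other 3 lay above it. Sesn1 had adjusted p = 0.230 in edgeR (log2 fold change 0.12, SE 0.082), with a 95% confidence interval from -0.041 to 0.29. Its relatives Sesn2 (log2 fold change 0.059, SE 0.052) and Sesn3 (-0.065, SE 0.033) did not pass either, at adjusted p = 0.391 and 0.108 in edgeR, but both depended on single libraries. Sesn2 passed without LPL overexpression replicate 4 (log2 fold change 0.12, adjusted p = 0.0388) and ranged from 0.019 to 0.12 with 1 library left out. Sesn3 passed in 3 of 14 alternatives, without control replicate 3 (-0.098, adjusted p = 0.0261), without LPL overexpression replicate 4 (-0.083, 0.0369) and with the replicate block (0.0197). The block also sets LPL overexpression replicate 4 aside, since no control shares its number.

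Zmat3, the gene of an RNA-binding zinc finger protein on the minus strand of chromosome 3 (32334792 to 32366014), stood at 41.8, 41.8 and 41.3 TPM in the controls and at 43.4, 41.1, 43.4 and 44.1 TPM with LPL overexpression. LPL overexpression replicate 2 was the lowest of the 7 libraries and the other 3 were the highest. Zmat3 had adjusted p = 0.601 in edgeR (log2 fold change 0.019, SE 0.027), with a 95% confidence interval from -0.035 to 0.073. Over the 14 alternatives Zmat3 ranged from 0.0078 to 0.046 and did not pass. Its relative Zmat1 was at 2.93 ± 0.0920 TPM (SD, n = 3) and 2.86 ± 0.218 TPM (SD, n = 4) and did not pass, and Zmat4 had no reads.

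The ratio of a target gene to Trp53 within a library does not depend on how libraries are scaled. The TPM ratio of Mdm2 to Trp53 was between 0.852 and 0.904 in the 3 controls and between 0.766 and 0.848 in the 4 LPL overexpression libraries. Eda2r stood at 0.663 to 0.690 of Trp53 in the controls and at 0.584 to 0.612 with LPL overexpression, and Trp53inp1 at 0.0880 to 0.0925 and 0.0814 to 0.0835. These 3 of 9 ratios were lower in all LPL overexpression libraries than in any control, as were the ratios to Trp53 of 11.9% of the 13638 other genes tested. Ccng1 went the other way, from 1.70 to 1.73 in the controls against 1.88 to 2.09 with LPL overexpression, and the ratio of Zmat3 was also above all controls, at 0.213 to 0.220 against 0.202 to 0.206, as for 32.4% of the other genes tested. In all, 5 of the 9 ratios did not overlap between the groups, against 44.3% of those genes. The ratios of Bax, Bbc3, Sesn1 and Phlda3 to Trp53 overlapped between the groups.

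**Figure D3:**
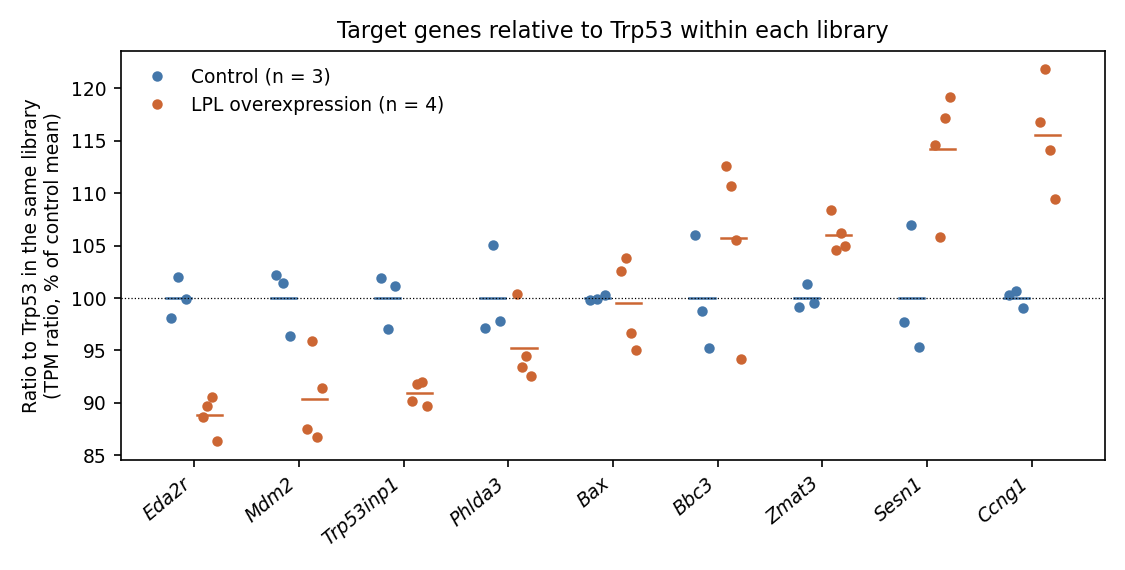
TPM ratio of each target gene to Trp53 in the same library, as a percentage of the mean ratio of the controls, with 3 control and 4 LPL overexpression libraries as points and group means as bars. Eda2r, Mdm2 and Trp53inp1 lie below all controls, Zmat3 and Ccng1 above all controls, and the other 4 overlap; among all other genes tested 11.9% lie below and 32.4% above.

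Of regulators of p53, 40.9% of those tested changed, beside 43.2% of all genes. The list holds 24 genes (kinases, ubiquitin ligases and their opponents, cofactors and family members). Of 22 tested, 2 rose (9.09%, beside 21.9% of all genes), 7 fell (31.8%, beside 21.3%) and 13 did not pass. The median log2 fold change was -0.051 beside 0.0024 over all genes tested. Atm, the kinase that responds to double-strand breaks, rose from 26.9 ± 0.466 TPM (SD, n = 3) to 31.4 ± 1.43 TPM (SD, n = 4), or 0.20 as a log2 fold change (SE 0.033). Atr, the kinase of replication stress, fell at adjusted p = 7.57e-04 in edgeR (log2 fold change -0.14, SE 0.035), a call that ended with limma on log2(TPM + 0.5) (adjusted p = 0.121), the end of a range over 14 alternatives that began at 5.14e-04. Trp53bp2, whose product binds p53 and favours its death targets, fell from 39.4 ± 1.76 to 34.9 ± 1.01 TPM, and Crebbp, an acetyltransferase that acts with p53, from 18.2 ± 0.547 to 16.4 ± 0.969 TPM. Mdm4, the partner of Mdm2, did not pass, at 25.6 ± 1.35 and 25.9 ± 0.462 TPM (log2 fold change -0.010, SE 0.030). The family members Trp63 and Trp73 had at most 3 reads over either group, too few to test.

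Other p53 targets of cell cycle arrest included Cdkn1a, which fell. Of 12 listed, 10 were tested, 1 rose (10%, beside 21.9% of all genes), 5 fell (50%, beside 21.3%) and 4 did not pass, with a median log2 fold change of -0.13. Cdkn1a, the gene of the cyclin-dependent kinase inhibitor p21 and the best known p53 target, stood at 565, 574 and 548 TPM in the controls and at 508, 496, 489 and 521 TPM with LPL overexpression. All 4 lay below the controls, at adjusted p = 1.88e-08 in edgeR (log2 fold change -0.19, SE 0.025). Ier5, an immediate early gene, fell furthest, from 71.6 ± 2.63 to 42.8 ± 1.84 TPM (log2 fold change -0.77, SE 0.038). Btg2, an antiproliferative gene, fell from 41.2 ± 0.861 to 30.2 ± 1.73 TPM, and Plk3, a stress kinase gene, from 76.3 ± 1.27 to 66.7 ± 1.27 TPM. The list's other fall and its rise were in genes of low level, chosen here after their values were seen: Sfn (6.53 and 4.66 TPM) and Rprm, which had 27 reads in the controls and 71 with LPL overexpression. Sfn passed in all 14 alternatives, while the Rprm call (adjusted p = 0.0104 in edgeR) ended with DESeq2 (0.102), with the replicate block (0.0506) and without control replicate 1 (0.0862), in a range that began at 0.00604.

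Of targets of cell death 40% and of DNA repair 22.2% of those tested changed, beside 43.2% of all genes. Of 17 death genes listed besides Bax and Bbc3, 15 were tested. Of these, 5 rose (33.3%, beside 21.9% of all genes), 1 fell (6.67%, beside 21.3%) and 9 did not pass. Their median log2 fold change was 0.064. Ckap2, a spindle-associated gene, rose from 151 ± 0.732 to 176 ± 3.62 TPM. Bid, which links death receptors to Bax, rose from 27.6 ± 1.17 to 32.3 ± 1.21 TPM, and Rps27l from 569 ± 15.9 to 631 ± 6.35 TPM. Dapk1, a death-associated kinase gene, fell from 7.08 ± 0.202 to 5.97 ± 0.296 TPM. Pmaip1, the gene of NOXA, had 90 and 156 reads over the groups and did not pass, at adjusted p = 0.179 in edgeR (log2 fold change 0.38, SE 0.23). It passed without LPL overexpression replicate 3 (0.53, adjusted p = 0.0473), and its log2 fold change was 0.58 without control replicate 1 and 0.12 without control replicate 3. Of 9 repair genes, all tested, 2 rose (Ercc5, log2 fold change 0.24, SE 0.049, and Rad51c, 0.26, SE 0.071), 0 fell and 7 did not pass, Ddb2 (-0.12, SE 0.070) and Polk (-0.086, SE 0.047) among them. The count of 0 falls was also 0 at an unadjusted p under 0.05 in edgeR and 0 with DESeq2, but without control replicate 3 Polk passed as lower (log2 fold change -0.13, adjusted p = 0.0376). Ddb2 was at -0.025 when both read orientations were counted.

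Targets of metabolism, redox balance and autophagy moved in both directions. Of 24 listed, 23 were tested, 8 rose (34.8%, beside 21.9% of all genes), 4 fell (17.4%, beside 21.3%) and 11 did not pass. The median log2 fold change was 0.13. Steap3, a metalloreductase gene of iron uptake, rose from 2.34 ± 0.493 to 5.21 ± 0.164 TPM (log2 fold change 1.12, SE 0.098). Dcxr, a carbonyl reductase gene, rose from 65.3 ± 5.45 to 102 ± 3.14 TPM. Abhd4, a lipase gene, also rose, to 48.9 ± 1.73 TPM (log2 fold change 0.45). Slc19a2, a thiamine transporter gene, fell from 66.1 ± 0.480 to 55.7 ± 1.80 TPM. Over the 5 lists together, 79 of 86 genes were tested, 18 rose (22.8%), 17 fell (21.5%) and 44 did not pass, close to the 21.9% and 21.3% of all genes tested, with a median of 0.014.

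**Figure D4:**
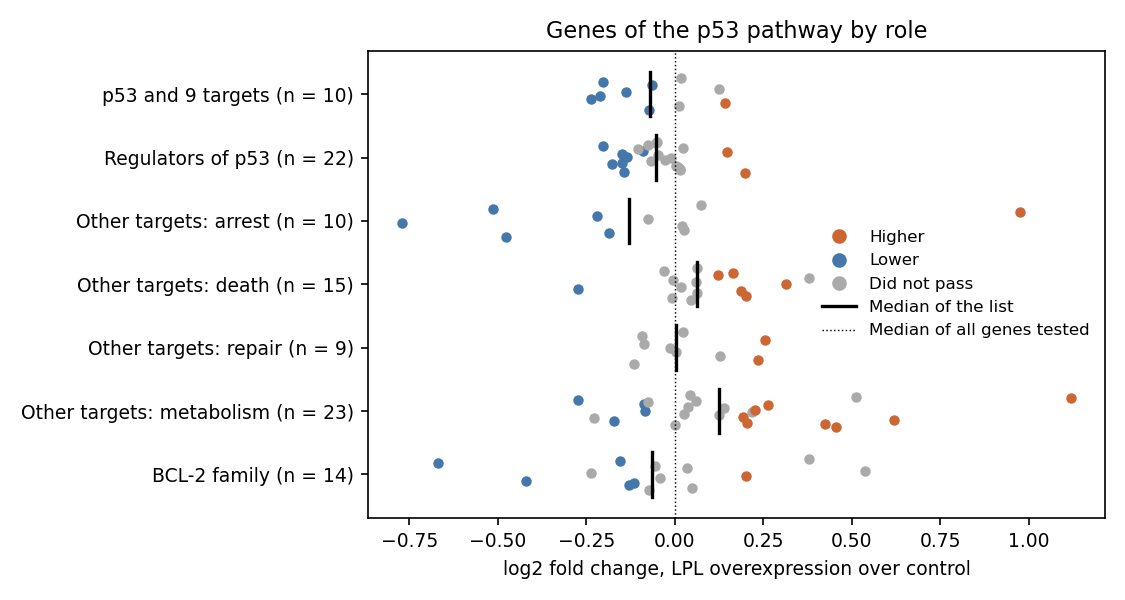
Log2 fold change of every tested gene in 7 lists by role, LPL overexpression over control, coloured by call, with the median of each list and, dotted, the median of all genes tested. The medians run from -0.13 for the other arrest targets to 0.13 for the metabolic targets.

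BCL-2 family genes are the guards and triggers around Bax, and 42.9% of those tested changed, beside 43.2% of all genes. Besides Bax and Bbc3, 17 were listed and 14 tested. Of these, 1 rose (Bid, 7.14%, beside 21.9% of all genes), 5 fell (35.7%, beside 21.3%) and 8 did not pass. Their median log2 fold change was -0.064. Bok, a relative of Bax, fell from 71.1 ± 3.59 (SD, n = 3) to 45.6 ± 1.05 TPM (SD, n = 4), or -0.67 as a log2 fold change (SE 0.043). Bcl2l11, the gene of the death trigger BIM, fell from 9.33 ± 0.0579 to 7.11 ± 0.714 TPM. The survival gene Mcl1 fell from 265 ± 0.802 to 243 ± 10.1 TPM, a log2 fold change of -0.15 (SE 0.026), so genes that favour death and genes that oppose it were both among the falls. Bak1, the other pore-forming gene, was at 164 ± 2.72 and 173 ± 3.88 TPM and did not pass (log2 fold change 0.050, SE 0.028, adjusted p = 0.139 in edgeR). Bak1 passed with upper-quartile factors (adjusted p = 0.0284) and on TPM values (0.0287), with adjusted p up to 0.387 over 14 alternatives.

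Eda2r, Mdm2, Trp53inp1, Phlda3 and Ccng1 passed in all 14 alternative analyses, and Bbc3, Sesn1 and Zmat3 in none of them. Trp53 passed in 3 and Bax in 4, and Bbc3, which never passed, changed sign in 3. With upper-quartile factors 59.2% and with limma on log2(TPM + 0.5) 61.3% of all changed genes were higher, against 50.7% with TMM, and under both of these scalings the 4 falls of Eda2r, Mdm2, Trp53inp1 and Phlda3 and the rise of Ccng1 kept their call.

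**Figure D5:**
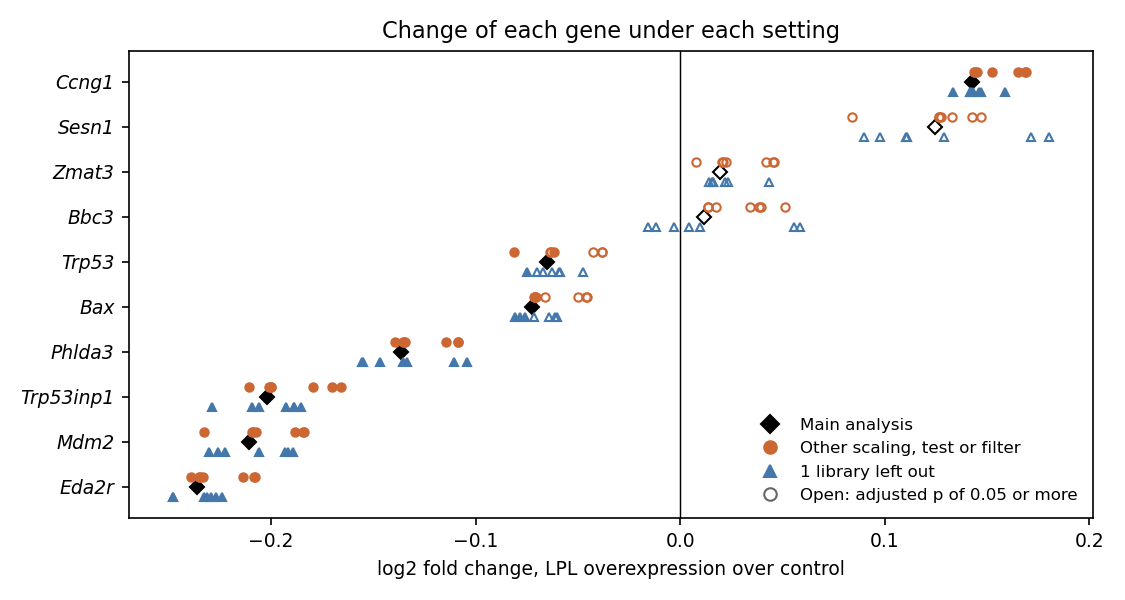
Log2 fold change of each gene, LPL overexpression over control, in the main analysis (diamonds), under 7 other scalings, tests or filters (circles) and with each of the 7 libraries left out (triangles), with open symbols for an adjusted p of 0.05 or more. The symbols of Trp53 and Bax are mostly open and lie between -0.081 and -0.038, and those of Bbc3 lie on both sides of 0.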

How the data were processed

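Total RNA of 7 MS-1 libraries was prepared with a TruSeq stranded total-RNA kit, per the labels' protocols, and reads were aligned with STAR to mm10, per the submitters' processing notes. The version of STAR and the annotation were not given in the sources used here. Every deposited table gives whole-number read counts per gene over exons for each read orientation, per the file headers, and the authors' TPM. Reverse-orientation counts, the sense strand of this kit (at least 97.0% of oriented reads), and their TPM were used.

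Counts were tested with edgeR 4.0.16 (R 4.3.3) by its quasi-likelihood test, with TMM scaling, filterByExpr by group, robust dispersion and the group as the only term, with Benjamini-Hochberg adjustment over the 13639 genes tested. Each SE was taken as the size of the log2 fold change divided by the root of the F statistic. Each 95% confidence interval was computed from that SE and the t distribution. Alternatives used DESeq2 1.42.0, limma 3.58.1 on log2(TPM + 0.5) and log2(TPM + 1), upper-quartile factors, no filter, both orientations, a replicate block and the omission of each library. The steps were tested on simulated counts. There 15 of 50 changes of 1.1-fold, 39 of 50 of 1.25-fold and 49 of 50 of 1.5-fold were recovered. A gene that did not pass may thus have changed by a small amount. Far fewer genes were changed in the simulation than in the data, so the rates may differ here.

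The 10 genes and all lists were chosen with earlier results of these data known. Genes named are the 10, the 4 lowest adjusted p of each list, Cdkn1a, Mdm4, Pmaip1, Sesn2 and Sesn3, the listed relatives and the 3 genes most like Trp53. Sfn and Rprm were added after their values were seen. Cop1 and Trp53rk were matched by synonym in the RefSeq gene table. Other markers examined were those of fibroblast and mural cells (summing to 5.56 to 6.34 CPM in controls and 9.24 to 10.0 CPM with LPL overexpression), macrophages and blood (71.8 to 77.2 and 94.5 to 103.5 CPM, nearly all Cd68) and islet and exocrine cells (0.222 to 0.290 and 0.745 to 0.975 CPM).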

Additional observations from a re-analysis of the deposited data

Results flagged for a closer look

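Among the 4 LPL overexpression libraries, 45 named genes were examined for 1 library standing apart, and 2 were found, where chance gives about 1 in 20. Neither is among the 10 genes, for which the count was 0 of 10. Bok was at 24.3 CPM in LPL overexpression replicate 4 against 25.5 ± 0.0898 CPM (SD, n = 3) in the other 3. Zmat1 was at 4.10 CPM in LPL overexpression replicate 1 against 4.81 ± 0.0662 CPM (SD, n = 3) in the others.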

How the results depend on the processing

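Over the 14 alternatives, 1 of the 10 genes rose in each and between 4 and 6 fell, while 17 to 21 genes of the 5 pathway lists rose and 12 to 17 fell, and over all genes 2452 to 3513 rose and 2082 to 2863 fell. With the replicate number as a block, 1 of the 10 rose and 5 fell, since the call of Bax ended (adjusted p = 0.0664, in a range from 0.0204 to 0.133), and over all genes 2931 rose and 2863 fell. No control has the replicate number 4. LPL overexpression replicate 4 was therefore alone in its block and added nothing to the group difference, much as when it was left out. Deviations of same-numbered libraries correlated at -0.0150, -0.0317 and 0.0125, within the range of differently numbered pairs, -0.0481 to 0.0427. So few pairs cannot tell whether same-numbered libraries shared a culture or a batch. The sign of Bbc3 turned, without passing, when control replicate 2 or 3 or LPL overexpression replicate 1 was left out, in a leave-one-out range from -0.016 to 0.058. Mdm4, which never passed, was at 0.012 with upper-quartile factors, 0.018 and 0.017 with limma on log2(TPM + 0.5) and log2(TPM + 1), 0.0041 with the replicate block, and from -0.040 to 0.021 with 1 library left out. Upper-quartile factors gave 3513 rises and 2426 falls over all genes, and limma on log2(TPM + 0.5) 3304 and 2082. Among the 10 genes Sesn1 had the fewest reads, 184 to 242 per library, and Edaradd, Rprm and Pmaip1, named beside them, had fewer still.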
